A study of Mesocricetus auratus with 11 samples.

Results

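Sparse CpGs with little methylation in primary cells were followed into a transformed cell line and through an inhibitor of DNA methyltransferases. The assay, reduced representation bisulfite sequencing, cuts DNA at a motif that holds a CpG and reads fragment ends after bisulfite treatment, so that only part of the genome's CpGs is seen. The 4 primary libraries were from Syrian hamster (Mesocricetus auratus) fetal cells, each from another female at gestation day 13.5, a mixture of ectodermal and mesodermal cells taken after 1 passage without treatment. MT2 is a female line from a single colony transformed by 5 µg/mL benzo[a]pyrene, which bypassed senescence and was near passage 28. Vehicle (0.05% DMSO) went to 4 of its wells, and 5 µM 5-aza-2'-deoxycytidine (5aCdR) to 3, for 48 h. The labels give 4 plates with 5aCdR in one place and 3 wells in another, and 3 libraries were analysed here. All MT2 wells came from 1 thawed stock, so their spread is that of wells and not of independent lines. P-values of 5aCdR against vehicle rest on this spread alone. Those of vehicle against primary cells pool it with the spread between primary libraries. No p-value here covers the spread between independent lines. MT2 and the primary cells differ in transformation, time in culture and medium together, and these cannot be told apart.

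The CpGs were chosen by measured values. A CpG had to have at least 10 reads in all 11 libraries, 1 to 9 listed CpGs within 250 bp on each side (itself included), and a methylation level below 20% in the pooled reads of primary replicates 1 and 2. This left 8753 CpGs of the 2010882 listed in any library, which is 10.8% of the 81297 CpGs with enough reads throughout and 18.8% of the 46464 sparse ones among them. They are called members below. They lay on 545 scaffolds, 6 of them on the mitochondrial sequence. Because primary replicates 1 and 2 chose them, the primary side of every comparison is primary replicates 3 and 4.

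In mammalian genomes most CpGs are methylated, and the enzymes DNMT1 and DNMT3 copy and place the mark. Methylated cytosines deaminate readily, so methylated sequence has become poor in CpG, while CpG islands, which are rich in CpG and often lie at promoters, mostly stay unmethylated. A sparse CpG is therefore methylated as a rule. Known exceptions are the flanks of CpG islands, called shores, and regulatory elements bound by transcription factors. 5aCdR is built into DNA and traps the methyltransferases there, so that methylation is lost as cells divide.

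The label "unmethylated" held only in part in the fetuses that had not chosen the members. Mean levels were 4.93% and 5.01% in primary replicates 1 and 2, which follows from the choice, and 15.9% and 16.5% in primary replicates 3 and 4. In the pooled reads of replicates 3 and 4, 5981 members (68.3%) were again below 20%, while 2772 (31.7%) were at or above it and 747 (8.53%) were at 50% or more. Replicates 3 and 4 were both below 20% at 5062 members and both at or above 20% at 1494. At 972 members only replicate 3 reached 20%, and at 1225 only replicate 4. Thus a low reading in replicates 1 and 2 did not fix the level in replicates 3 and 4. Over all sparse CpGs the pairs had similar means, at 59.5% in replicates 1 and 2 and 59.7% in replicates 3 and 4. Sparse CpGs above 80% in replicates 1 and 2 went the other way from members, from 94.96% to 85.3%. Those at 20 to 80% went from 54.1% to 57.5%. How far the rise at members came from the choice, rather than from differences between fetuses, was not tested. No methylated read was found in any of the 4 primary libraries at 2532 members, and in none of the 11 libraries at 976. The limit itself marked no step. Members at 18 to 20% in replicates 1 and 2 were at 30.5% in replicates 3 and 4, and sparse CpGs just outside, at 20 to 22%, were at 31.6%.

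Read depth went with this rise. Members with 10 to 14 reads in their shallowest library (3990 CpGs) were at 18.2% ± 0.405 (SD, n = 2) in primary replicates 3 and 4. Those with 30 to 49 reads (792 CpGs) were at 11.99% ± 0.215 (SD, n = 2). The 248 members with at least 100 reads in every library were at 9.04% ± 0.0772 (SD, n = 2). Deeply read members thus lay nearer to the level at which they were chosen. The part of depth in this was not tested.

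Members that lay together had lower mean levels in the other fetuses. Joining members no more than 250 bp apart gave 6310 runs, of which 4785 held 1 member, 955 held 2 and 570 held 3 or more, up to 9. In primary replicates 3 and 4 the mean level was 22.1% ± 0.537 (SD, n = 2) at members in runs of 1. It was 13.4% ± 0.264 (SD, n = 2) in runs of 2, 5.87% ± 0.590 (SD, n = 2) in runs of 3 to 4, and 1.98% ± 0.386 (SD, n = 2) at the 481 members in runs of 5 or more. These are class means: the 2532 members without a methylated read in the 4 primary libraries outnumber the 2058 members in runs of 3 or more, so many of them lay outside such runs. A member near another shares fragments and reads with it, so members of a run are not independent of each other.

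The surroundings were read from neighbouring CpGs. Those within 25 bp of a member were at 16.4% in primary replicates 3 and 4, of which 72.9% were members themselves. Around all sparse CpGs the same neighbours were at 60.8%. Around members in runs of 1, whose neighbours within 250 bp are by definition not members, they were at 53.1%. Within 250 bp these values follow largely from how runs were defined. Beyond 250 and up to 500 bp, where the definition fixes nothing, neighbours of members in runs of 1 were at 31.8%, against 48.8% for all sparse CpGs. Beyond 500 and up to 1000 bp they were at 22.4% and 33.2%. Neighbours at these distances were thus lower around solitary members than around sparse CpGs at large.

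**Figure D1:**
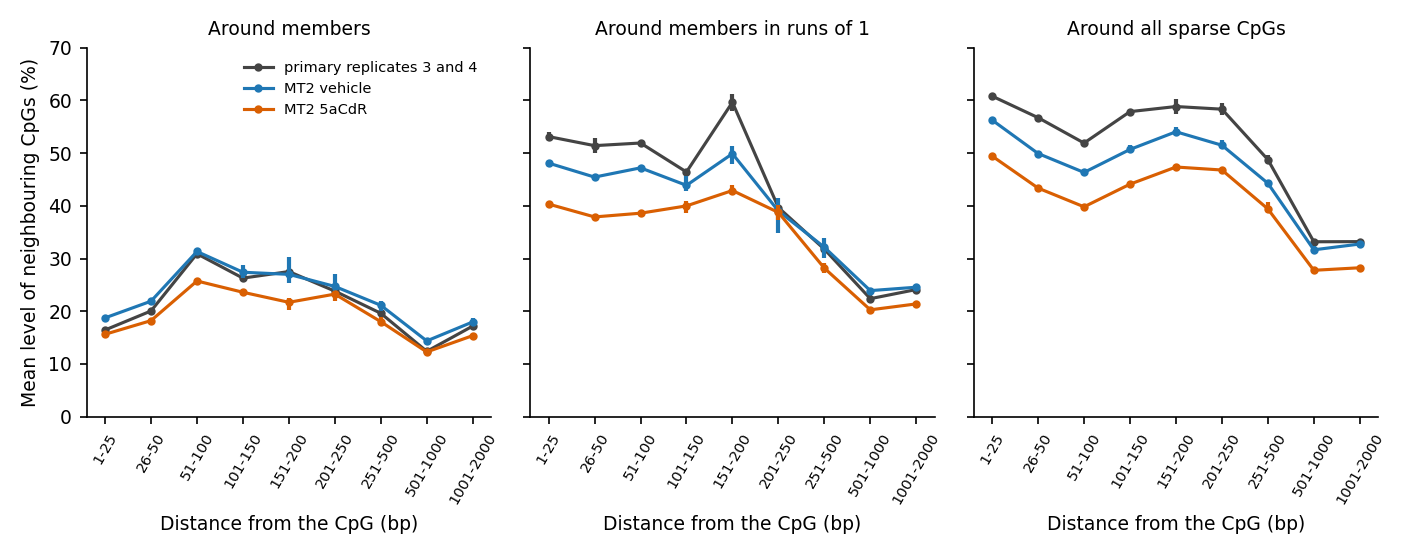
Mean methylation level (%) of CpGs read at least 10 times in each of the 11 libraries, by distance in bp from the CpG at the centre, for members, members in runs of 1 and all sparse CpGs. Points are means over the libraries of a group and vertical lines span its libraries; within 25 bp the primary level is 16.4% around members, 53.1% around members in runs of 1 and 60.8% around all sparse CpGs.

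Position relative to CpG-rich sequence, which the rule did not use, set members apart from other sparse CpGs. A dense CpG here has 20 or more listed CpGs within 250 bp. Density counts listed CpGs only, so a CpG called sparse can have CpGs near it that were not listed. Within 2000 bp of a dense CpG lay 22.5% of members and 5.21% of the other sparse CpGs. Within 500 bp these shares were 9.81% and 0.955%. Of the 1219 sparse CpGs within 500 bp of a dense one, 70.5% were members, against 15.6% of those 20000 bp or more away. Median density was 5 for members and 4 for other sparse CpGs, and median reads were 52.3 and 59.3. The files name scaffolds and not genes, and no annotation of their build was used here, so the dense stretches are not assigned to promoters.

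MT2 cells with vehicle had more methylation at the members than primary replicates 3 and 4. Member means were 20.2%, 19.7%, 19.6% and 20.0% in vehicle replicates 1 to 4, and 15.9% and 16.5% in the primary replicates. Every vehicle library lay above both. Vehicle averaged 19.9% ± 0.270 (SD, n = 4) and primary cells 16.2% ± 0.436 (SD, n = 2), a difference of 3.72 percentage points. Over all 46464 sparse CpGs the difference had the opposite sign, -6.33 percentage points, and over all 81297 CpGs with enough reads it was -3.08. At sparse CpGs at 20 to 80% in primary replicates 1 and 2 it was -8.88, and at those above 80% it was -8.40. The part of the starting level in this sign was not tested. No p is given for a mean over CpGs that were chosen with results of these data known. The size of the difference depended on the choice of members. It was 4.64 with members chosen by primary replicates 3 and 4 and compared with 1 and 2, and 2.43 with reads pooled over members. It was 0.997 with members chosen by primary replicate 1 alone and 1.80 with replicate 2 alone.

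The difference also varied with the level at which a member was chosen. It was 4.09 percentage points at members without a methylated read in primary replicates 1 and 2, 6.31 at those above 0 and below 5%, and 4.82 at 5 to 10%. It was 3.14 at 10 to 15% and 1.31 at 15 to 18%. At the 457 members at 18 to 20% it turned to -1.67, with every vehicle library below both primary ones. It was also -2.08 at the 32 members with 500 or more reads in every library. The higher vehicle mean thus did not hold in every class of members.

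**Figure D2:**
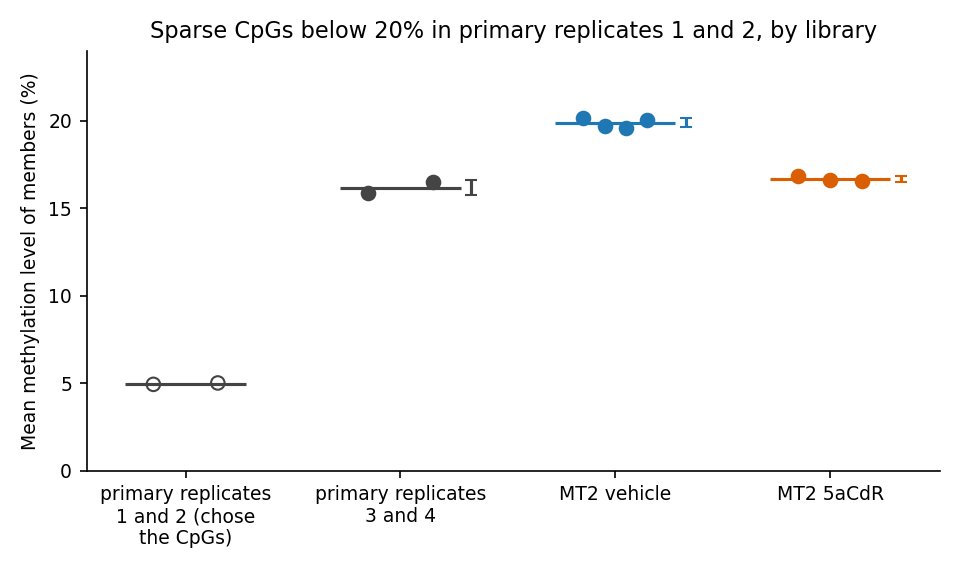
Mean methylation level (%) over the 8753 members in each library (points), with the group mean (line) and SD over libraries (bar, not drawn for the pair that chose the members). Open points are the libraries that chose the members; the 4 vehicle libraries, at 19.6% to 20.2%, lie above primary replicates 3 and 4, at 15.9% and 16.5%.

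More members were highly methylated in MT2, while most were low in both. In pooled vehicle reads 5734 members (65.5%) were below 20%, 775 (8.85%) were between 50 and 80%, and 385 (4.40%) were at 80% or more. In primary replicates 3 and 4 those last classes held 609 and 138 members. Per library, the share of members at 50% or more was 15.9% to 17.3% with vehicle, and 11.6% and 10.5% in primary replicates 3 and 4. These shares move with depth. In the deeper vehicle libraries, replicates 1 and 4, members without a methylated read made up 46.7% and 49.2%, and in the shallower replicates 2 and 3 they made up 58.6% and 60.3%. In primary replicates 3 and 4 they made up 56.0% and 46.0%.

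**Figure D3:**
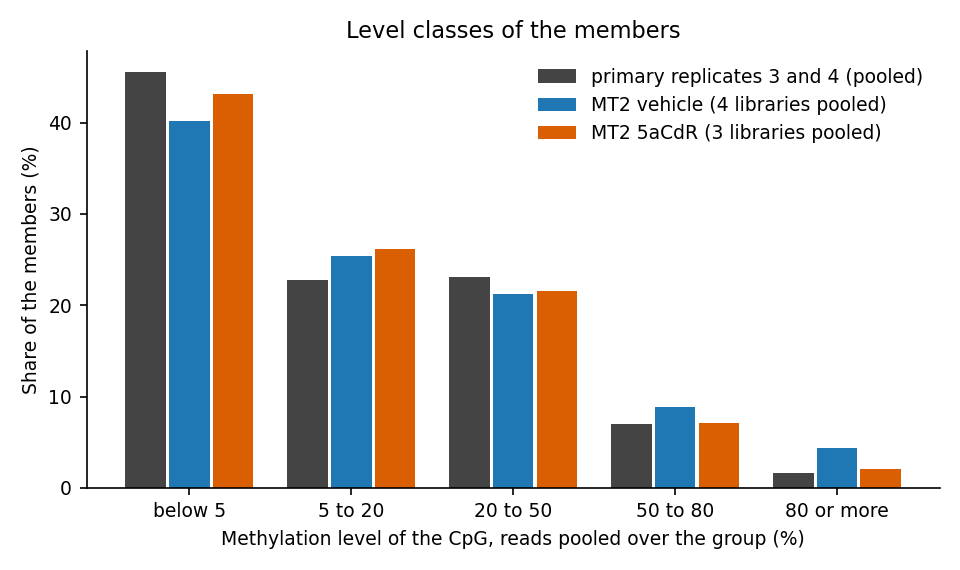
Share of the 8753 members (%) in 5 classes of methylation level, with reads pooled over the libraries of a group. At 80% or more lie 1.58% of members in primary replicates 3 and 4, 4.40% with vehicle and 2.07% after 5aCdR.

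Members close to CpG-rich sequence were low in primary cells, and those 500 to 1000 bp from it showed the largest mean difference in MT2. Calls of a higher level at single members were not more frequent within 2000 bp, unlike such calls at all sparse CpGs. Within 500 bp of a dense CpG (859 members), levels were 10.3% ± 1.21 (SD, n = 4) with vehicle and 5.69% ± 0.310 (SD, n = 2) in primary cells. Between 500 and 1000 bp (669 members) the vehicle level was 15.3% ± 0.197 (SD, n = 4) against 7.89% ± 0.538 (SD, n = 2), or 7.36 percentage points more. Between 1000 and 2000 bp (439 members) they were 18.1% ± 1.18 (SD, n = 4) and 11.6% ± 0.631 (SD, n = 2). No vehicle library overlapped a primary one in these 3 classes or in any class farther out. Farther out the difference was smaller, at 3.09 between 2000 and 5000 bp, 3.83 between 5000 and 20000 bp and 3.16 for the 4543 members 20000 bp or more away. Of members within 2000 bp, 1.63% were called higher at single CpGs by the test described below, against 1.91% between 2000 and 20000 bp and 2.29% farther away. Of all sparse CpGs, which include the members, 2.54%, 1.47% and 1.41% were called higher at these distances. Called lower were 0.203%, 0.741% and 1.14% of members, and 0.763%, 2.04% and 4.02% of all sparse CpGs. These classes were set after the data were examined. With members chosen by primary replicates 3 and 4, the differences from the nearest to the farthest class were 4.75, 7.23, 4.89, 4.16, 4.03 and 4.58. With at least 20 reads they were 4.33, 6.25, 5.36, 5.73, 1.74 and 2.81. At members without a methylated read in primary replicates 1 and 2 they were 3.83, 5.94, 4.87, 1.24, 3.46 and 4.68. There the libraries overlapped between 2000 and 5000 bp. The distance of 500 to 1000 bp thus had the largest value in each of these settings, and the order of the others changed.

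Scaffolds without any dense CpG held 354 members. There the vehicle level, 17.2% ± 0.374 (SD, n = 4), was below the primary one, 18.2% ± 0.163 (SD, n = 2). The direction turned, to a vehicle level 2.35 percentage points higher, when primary replicates 3 and 4 chose the members.

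All sparse CpGs, which include the members, followed a similar course near dense sequence and the opposite one far from it. Their vehicle level was 5.54 percentage points above the primary one between 500 and 1000 bp, and the difference was -8.57 at 20000 bp or more. The course near dense sequence rested partly on the members. At the other sparse CpGs the difference was 1.56 within 500 bp, 3.55 between 500 and 1000 bp and -1.13 between 1000 and 2000 bp. Only between 500 and 1000 bp were the libraries of the 2 groups without overlap among these 3 classes. The difference between members and other sparse CpGs at a given distance was not tested, and members had been chosen to be low.

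**Figure D4:**
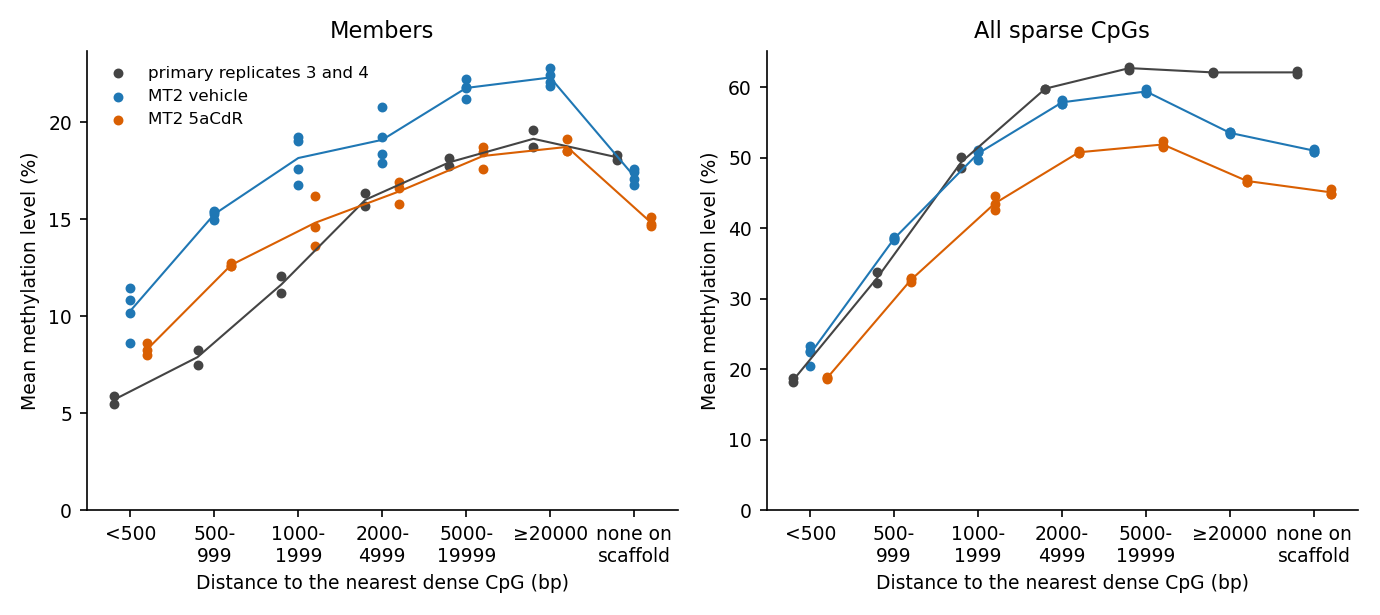
Mean methylation level (%) by distance in bp to the nearest dense CpG, for members (left) and all sparse CpGs (right); points are libraries and lines join group means. Among members 500 to 1000 bp away, the vehicle libraries average 15.3% and primary replicates 3 and 4 average 7.89%.

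By run, vehicle exceeded primary replicates 3 and 4 by 1.94 percentage points at members in runs of 1. It did so by 6.42 in runs of 2, 6.07 in runs of 3 to 4 and 2.97 in runs of 5 or more. The last class was at 4.94% ± 0.444 (SD, n = 4) with vehicle, still a low level. With members chosen by the other primary pair these differences were 3.12, 8.01, 5.57 and 2.68. With at least 20 reads they were 2.35, 3.88, 6.001 and 1.03.

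Regions were tested as tiles of 1000 bp with at least 3 CpGs. A quasi-binomial model compared methylated with unmethylated reads, and a tile was called at a Benjamini-Hochberg adjusted p below 0.05 over all tiles. A tile counted as a member tile when it held at least 3 CpGs with enough reads in all 11 libraries and all of these were members. There were 416, with 1541 members. Between vehicle and primary replicates 3 and 4, 36 member tiles were called higher in MT2 (8.65%) and 5 lower (1.20%). Over all 17412 tiles tested, 4.55% were called higher and 7.17% lower. A tile near 0 has little room to fall, and the highly methylated tiles among all those tested have little room to rise. Both member shares thus follow partly from the choice. Median differences were 1.47 percentage points over member tiles and 0 over all tiles. The 36 tiles lay on 32 scaffolds, and their median level was 4.49% in primary replicates 3 and 4 and 47.7% with vehicle. Of the 36, 14 were within 2000 bp of a dense CpG (38.9%), as were 38.7% of all member tiles. The count rested on both primary libraries: without primary replicate 3 there were 8 calls in all, and without replicate 4 there were 6. Without any 1 vehicle library 33 to 37 were called, and limma on log ratios of reads called 33.

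The largest rises took tiles from a low to a high level. By the naming rule (a call, a difference of 25 percentage points or more, libraries without overlap) 24 tiles qualified for a rise and none for a fall. The 10 with the largest rise are described here, on 10 scaffolds. Without primary replicate 3 or without replicate 4, 3 of the 10 were still called each time. All 10 were called without any single vehicle library and with limma. In what follows, levels pool the reads of a tile's CpGs.

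The tile at 2229001 to 2230000 of scaffold KB708321.1 was read most deeply of the 10, at a median of 816 reads over its 3 CpGs. It was at 97.4%, 90.2%, 100% and 91.6% in vehicle replicates 1 to 4, and at 11.3% and 11.1% in primary replicates 3 and 4. The groups lay far apart (quasi-binomial test, adjusted p = 1.29e-05). After 5aCdR it was at 84.3%, 90.3% and 89.9%, so it stayed highly methylated. Its nearest dense CpG was 1423 bp away.

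The tile at 2732001 to 2733000 of KB708264.1 was fully methylated in all 4 vehicle libraries. Primary replicates 3 and 4 were at 25.5% and 9.77% (quasi-binomial test, adjusted p = 0.000270). After 5aCdR it was at 74.1%, 84.6% and 73.7%, below each vehicle library. It is the single member tile called in the drug comparison, described again there. On KB708163.1, positions 5193001 to 5194000 averaged 88.2% ± 10.6 (SD, n = 4) with vehicle and 14.2% ± 4.54 (SD, n = 2) in primary cells. The 5aCdR libraries were close to each other, at 75.0%, 74.5% and 75.5%, and below every vehicle library.

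The tile at 697001 to 698000 of KB708355.1 had no methylated read in primary replicates 3 and 4. Its 4 CpGs were at 73.2%, 64.1%, 73.6% and 62.1% with vehicle (quasi-binomial test, adjusted p = 0.000319), and at 49.7%, 51.3% and 49.8% after 5aCdR. The 3 groups do not overlap there. At 24877001 to 24878000 of KB708136.1, 1610 bp from a dense CpG, levels were 73.8% ± 9.34 (SD, n = 4) with vehicle and 13.3% ± 3.53 (SD, n = 2) in primary cells. On KB708197.1, positions 9043001 to 9044000 lay 344 bp from a dense CpG, the nearest of the 10. It was at 38.8%, 83.8%, 51.02% and 67.8% with vehicle, a wide spread between wells of 1 stock, and at 1.09% and 3.99% in primary cells.

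Another 2 of the 10 were not lower after the drug. The tile at 3090001 to 3091000 of KB708226.1 was at 90.4% ± 5.21 (SD, n = 4) with vehicle and at 98.9%, 96.6% and 91.1% after 5aCdR. Its primary replicates 3 and 4 differed, at 4.89% and 29.02%. On KB708215.1, positions 3398001 to 3399000 averaged 58.0% ± 13.3 (SD, n = 4) with vehicle and 2.28% ± 2.45 (SD, n = 2) in primary cells. It lay 350604 bp from the nearest dense CpG. Over its 4 CpGs with reads in all libraries, 5aCdR libraries were at 55.9% to 66.0%, inside the range of the vehicle libraries. The remaining 2, on KB708147.1 and KB708240.1, had primary libraries as far apart as 26.9% and 9.43%, and 2.00% and 19.5%, over the CpGs with reads in all libraries.

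**Figure D5:**
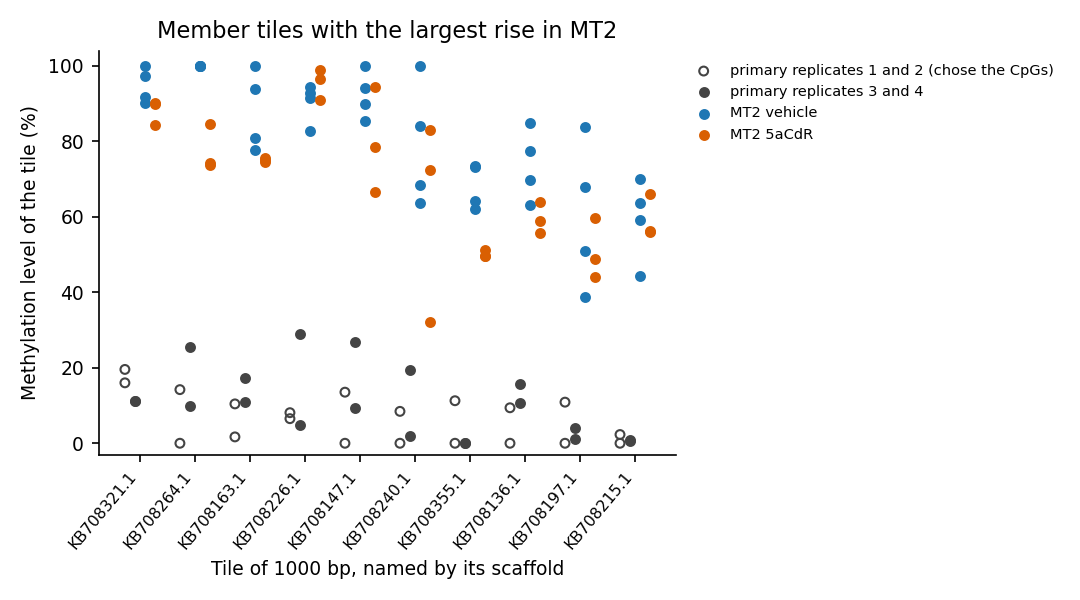
Methylation level (%) of the 10 member tiles with the largest rise from primary replicates 3 and 4 to MT2 vehicle, in each library (points), over CpGs with enough reads in all 11 libraries; open points are the libraries that chose the members. All vehicle points of a tile lie above both of its primary points, and on KB708226.1 the 5aCdR libraries, at 91.1% to 98.9%, lie within or above the vehicle range.

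At single CpGs, 179 members (2.05%) were called higher with vehicle than in primary replicates 3 and 4, and 80 (0.914%) lower. Over all 147189 CpGs tested, 0.928% were called higher and 1.58% lower. Among the 46464 sparse CpGs with enough reads these shares were 1.51% and 3.32%. Members were chosen to be low, so both of their shares follow partly from the choice here too. The members called higher went from 11.5% and 13.9% in primary replicates 3 and 4 to a mean of 89.4% with vehicle. Those called lower were at 56.2% and 57.3% in primary replicates 3 and 4, and at 1.14% on average with vehicle. They had been at 11.6% and 9.69% in the fetuses that chose them. A gap between the 2 pairs of fetuses follows from choosing these CpGs as low in 1 pair and calling them against the other. These single-CpG calls were fragile. Leaving out vehicle replicate 1, 2, 3 or 4 left 1, 2, 1 or 1 of any direction. Without primary replicate 3 or 4 there were 215 and 214, of which 107 and 105 were higher. Limma called 267, of which 171 were higher.

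The CpGs with the largest differences were read as fully methylated or fully unmethylated. Every vehicle library was at 100% and both primary libraries at 0% at 13 called members, each of them a tie for the largest rise, and the 10 first by scaffold name are taken here. The CpG at 3574110 of KB708158.1 had no methylated read in any of the 4 primary libraries, at a median depth of 45 reads. It was at 100%, 56.8% and 100% after 5aCdR. The CpG at 4960044 of KB708264.1 also had none in the primary libraries, and was at 61.9%, 52.4% and 64.1% after 5aCdR. At 4072011 of KB708261.1 the 5aCdR wells were at 19.4%, 100% and 0%, which shows how far single CpGs varied between wells. The positions 4260539 of KB708273.1 and 3038858 of KB708296.1 were at 100% in all 7 MT2 libraries and at 0% in all 4 primary libraries. At the other 5, 2 or 3 of the 5aCdR libraries were at 100%.

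Among falls, 68 member CpGs met the naming rule. The largest, at 465 of contig APMT01229233.1, was at 0% in all 7 MT2 libraries and at 100% in primary replicates 3 and 4. It had been at 26.1% and 0% in primary replicates 1 and 2. The CpG at 3503099 of KB708135.1, with a median of 69 reads, was at 0% in all 4 vehicle libraries and at 96.9% and 83.0% in primary replicates 3 and 4. Replicates 1 and 2 had no methylated read there. The other 8 of the 10 largest falls averaged 10.2% or less with vehicle and 88.7% or more in primary replicates 3 and 4. They were at 31.0% or less in each of the 2 libraries that chose them. The difference between the 2 pairs of fetuses at these CpGs was part of how they came to be members and was not tested.

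The mean level of the members was lower after 5aCdR. Libraries were at 16.8%, 16.6% and 16.6% after 5aCdR, each below the lowest vehicle library, 19.6%. The drug mean, 16.7% ± 0.145 (SD, n = 3), differed from the vehicle mean, 19.9% ± 0.270 (SD, n = 4), by -3.22 percentage points, a relative change of -16.2%. Over all sparse CpGs the difference was -6.81 percentage points and the relative change -12.7%. The relative change was -14.2% at sparse CpGs at 20 to 80% in primary replicates 1 and 2, and -11.1% at those above 80%. The values of neither group entered the rule, but the difference moved with the choice of members. It was -4.30 without primary replicate 1, -3.84 without primary replicate 2, -2.75 for members below 10% and -2.46 with at least 20 reads. Differences between the relative changes were not tested.

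Loss after 5aCdR was larger, in percentage points, the more methylation MT2 carried at a member. To keep the grouping apart from the comparison, members were grouped by pooled vehicle replicates 1 and 2 and compared with vehicle replicates 3 and 4. The 5710 members below 20% were at 7.35% and 7.80% in vehicle replicates 3 and 4, and at 6.33% ± 0.0472 (SD, n = 3) after 5aCdR. The 2588 members at 20 to 80% were at 36.5% and 36.9%, and at 30.7% ± 0.665 (SD, n = 3) after 5aCdR. The 455 members above 80% were at 77.7% and 78.1%, and at 66.8% ± 1.22 (SD, n = 3) after 5aCdR. No 5aCdR library overlapped a vehicle one in any of the 3 groups. The differences were -1.24, -5.99 and -11.2 percentage points, which as relative changes were -16.4%, -16.3% and -14.3%. Primary replicates 3 and 4 were at 36.1% and 34.8% in the group above 80%, where the drug mean was 31.3 percentage points higher.

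Across the distance classes the relative change lay between -19.3% and -13.8%, and the 5aCdR libraries were below all vehicle libraries in each. The largest was within 500 bp of a dense CpG, where the level was 8.29% ± 0.308 (SD, n = 3) after 5aCdR. At members in runs of 5 or more it was 3.54% ± 0.304 (SD, n = 3), a relative change of -28.5% of a level of only 4.94%. The 6 mitochondrial members were at 2.50% ± 0.205 (SD, n = 3) after 5aCdR. They were at 2.80% ± 0.306 (SD, n = 4) with vehicle and 4.01% ± 0.334 (SD, n = 2) in primary cells. In primary cells, members in runs of 5 or more were thus lower than the mitochondrial ones.

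No single member CpG was called after 5aCdR. Over all 155920 CpGs tested, 0.0847% were. The prior dispersion of this test was 10.8, at a median of 55.6 reads per member and library. A count of 0 at such values does not show that no member changed. At an unadjusted p below 0.05 there were 476 members (5.44%), 360 lower and 116 higher, against 8.77% of all CpGs. Limma on log ratios called 0 members as well. With only CpGs common to all 11 libraries in the table, the quasi-binomial test called 1. Libraries after 5aCdR lay below all vehicle libraries without overlap at 229 members (2.62%) and above them at 133 (1.52%). Over all CpGs these shares were 4.39% and 0.829%. Members thus had a smaller share of such falls and a larger share of such rises than the table as a whole, which includes CpGs of high starting level.

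Of the 416 member tiles, 1 was called after 5aCdR (0.240%), against 0.799% of all 18639 tiles. It was the tile of KB708264.1 at 2732001 to 2733000, 2192 bp from a dense CpG, named here after its values were seen. It fell from 100% in each vehicle library to 77.5% ± 6.21 (SD, n = 3), from a median of 168 reads (quasi-binomial test, adjusted p = 0.0340). The call was lost without any of the 4 vehicle libraries, and without 5aCdR replicate 1 or 3, and it was not made by limma (adjusted p = 0.156). The median difference was -0.34 percentage points over member tiles and -1.22 over all tiles.

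Regions called higher in MT2 had intermediate levels after the drug on average, but in most of them the drug and vehicle libraries were not fully apart. The 36 tiles called higher in MT2 were at 6.57% on average in primary replicates 3 and 4, 48.1% with vehicle and 38.5% after 5aCdR. In 34 of them every 5aCdR library lay above both primary libraries, as in 101 of all 416 member tiles. The 5aCdR mean was below the vehicle mean in 30 of the 36 and in 230 of the 416. Every 5aCdR library was below every vehicle library in only 8 of the 36 and in 16 of the 416. At the 179 CpGs called higher the mean was 89.4% with vehicle and 71.5% after 5aCdR. The 5aCdR mean was below the vehicle mean at 154 of them and at 4254 of all 8753 members. Every 5aCdR library was below every vehicle library at 50 of the 179 and at 229 of the 8753. Both sets were picked for high vehicle and low primary levels in these same libraries, so their place between the groups after 5aCdR is a description and supports nothing. The grouping by vehicle replicates 1 and 2 above compares with other vehicle libraries.

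The mean over members after 5aCdR was close to that of primary replicates 3 and 4 for the members as chosen. The difference was 0.501 percentage points, near the SD of 0.436 between the primary libraries. Its sign was not stable. It was -0.171 with pooled reads, -0.594 as a mean over runs and -0.988 at members with 1 to 4 listed CpGs nearby. Choosing members without primary replicate 1 gave -2.51, and without primary replicate 2 it gave -2.84. Equal means did not mean equal CpGs: the difference was -4.07 at members grouped below 20% by vehicle replicates 1 and 2, and 31.3 at those above 80%.

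Low CpGs in denser surroundings were compared as the most similar classes. Chosen by the same level rule, 7532 CpGs of medium density (10 to 19 listed CpGs) were at 5.19% ± 0.511 (SD, n = 2) in primary replicates 3 and 4. They were at 9.22% ± 0.183 (SD, n = 4) with vehicle and 7.78% ± 0.235 (SD, n = 3) after 5aCdR. The 19092 dense CpGs (20 or more) were at 1.17% ± 0.0810 (SD, n = 2), 3.01% ± 0.0636 (SD, n = 4) and 2.58% ± 0.0310 (SD, n = 3). Vehicle thus exceeded primary cells by 3.72 percentage points at the sparse members, 4.03 at medium density and 1.83 at dense CpGs. The relative changes from vehicle to 5aCdR were close to each other, at -16.2%, -15.6% and -14.2% in that order. In the fetuses that chose them the classes were at 4.97%, 2.17% and 0.674%. At CpGs without a methylated read in primary replicates 1 and 2, replicates 3 and 4 were at 11.3% in the sparse class, 2.82% at medium density and 0.847% at dense CpGs. Differences between the 3 classes were not tested.

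Among members, levels were lower at each step in density from 2 to 9 in primary cells. Primary replicates 3 and 4 averaged 21.2% at a density of 2 and 10.98% at 9. Vehicle averaged 22.9% and 16.0% there. Vehicle exceeded primary cells by 2.62 percentage points at a density of 1 to 4 (3705 members) and by 4.53 at 5 to 9 (5048 members). The 5aCdR libraries were below all vehicle libraries at every density from 2 to 9. At a density of 1 (109 members) they were at 20.7% ± 2.81 (SD, n = 3) and overlapped the vehicle libraries, at 20.7% ± 1.32 (SD, n = 4).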

How the data were processed

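Reduced representation bisulfite libraries of 4 vehicle, 3 5aCdR and 4 primary samples were analysed. The submitters' processing notes name methylKit 1.10.0 in R 3.6.1, Bismark 0.22.1 with Bowtie2, and for the reads Trim Galore 0.5.0 and bcl2fastq 2.20.0.42. Settings and genome build are not given in the sources used here. Per the file headers, the authors deposited for each strand of a CpG its coverage (a count of reads) and the percent methylated among them. Every listed position had at least 10 reads, so a strand with fewer is missing. Reads per library totalled 17834610 to 46148127. Reads copied from the same molecule cannot be told apart, and no interval from read counts is given.

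Methylated reads were recovered as coverage times percent, rounded, and both strands of a CpG were summed. A level is the mean over CpGs per library unless reads are said to be pooled. Tests were fitted to all CpGs, or tiles of 1000 bp with at least 3 CpGs, that had at least 10 reads in each library of the groups compared. The quasi-binomial model had 1 coefficient for the group. Its Pearson dispersion was moderated across units by limma's empirical Bayes method, with a prior from units with at least 10 reads of each kind, and kept at 1 or more. The prior dispersion for CpGs was 8.001 for vehicle against primary cells and 10.8 for 5aCdR against vehicle. At a dispersion of 8, about 8 reads weigh as 1. For vehicle against primary cells the prior had 3.10 degrees of freedom, against 4 from the CpG itself. CpGs without spread inside the groups thus had a dispersion below the prior, and their reads weighed more. P-values of the deviance F test had Benjamini-Hochberg adjustment. The tests were tried on simulated data. Limma was run on log2((methylated reads + 1)/(unmethylated reads + 1)), averaged over the CpGs of a tile.

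Tiles and CpGs were named by rule: up to 10 called rises and 10 falls of at least 25 percentage points without overlap between libraries, with 1 CpG per tile. Members, classes and tests were chosen with earlier results of these data known. Classes of distance and run were added after the data were examined. Alternatives were 20 reads, pooled reads, strands, coverage, density, level, sequences left out, the other primary pair, runs, dispersion, limma, tile size, leaving out each library, and a replicate block. Python 3.11.15, numpy 2.4.6, scipy 1.17.1, pandas 2.3.3, matplotlib 3.10.9, R 4.3.3 and limma 3.58.1 were used.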

Additional observations from a re-analysis of the deposited data

Results flagged for a closer look

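In 40 classes of members, the 4 vehicle libraries were checked for 1 library far from the others, which chance alone gives in about 1 of 20 classes. It was found in 2 classes. Among members at 10 to 15% in primary replicates 1 and 2, vehicle replicate 1 was at 28.4% and the other 3 at 26.7% to 26.9%. Among members with at least 100 and fewer than 500 reads in their shallowest library, vehicle replicate 3 was at 13.7% and the other 3 at 12.04% to 12.3%.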

How the results depend on the processing

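The mean 5aCdR minus vehicle difference was below 0 and the vehicle minus primary difference above 0 in each alternative run; the cause of the moves was not tested. 5aCdR minus vehicle was -2.46 with 20 reads, -3.56 with both strands listed, -3.60 at a density of 1 to 4, -2.75 for members below 10%, -2.60 with pooled reads, -3.55 as a mean over runs and -2.66 for members below 5%. Vehicle minus primary was, in that order without both strands, 3.24, 2.62, 4.46, 2.43, 2.95 and 4.40, and 4.64 with the other primary pair. 5aCdR minus primary turned to -0.239 with both strands, -0.988 at a density of 1 to 4, -0.0983 with density counted within 500 bp, -0.171 with pooled reads and -0.594 over runs, and was 1.71 for members below 10% and 1.87 with the other pair. With 1 library left out the 3 differences ranged from -4.30 to -3.12, 0.997 to 4.03 and -2.84 to 0.810, the last reversing at -2.51 and -2.84 without primary replicates 1 and 2. Members at 50% or more were 6.41% (primary), 11.9% (vehicle) and 8.28% (5aCdR) with 20 reads. Below 5%, 5aCdR minus vehicle was -0.978 at medium density and -0.348 at dense CpGs, where vehicle minus primary was 1.65. On scaffolds without a dense CpG, vehicle minus primary turned to 2.35 with the other pair, an alternative chosen after seeing the data.

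For 5aCdR, called member CpGs were 1 with 20 reads, 1 with CpGs common to all libraries, 4103 with no dispersion, and 0 to 1 with 1 library left out. Called tiles were 2 at 500 bp, 227 with no dispersion, 0 with limma and 0 to 1 with 1 library left out. For vehicle against primary, called CpGs were 102 with both strands, 139 at a density of 1 to 4, 143 below 10%, 141 with the other pair, 5049 with no dispersion and 1 to 375 with 1 library left out. Called tiles were 279 with no dispersion and 6 to 50 with 1 library left out. With a replicate block, called tiles were 0 for 5aCdR and 24 for vehicle against primary, and called CpGs were 0 in both. Libraries with the same number did not vary together at single CpGs (correlations of -0.0102 to 0.00381). Read noise at single CpGs could hide a pairing, so whether the numbers pair the libraries is not decided. Depth limits single CpGs: the median was 31 to 75 reads per member and library.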

Other observations

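Of the 545 scaffolds with members, 75 had at least 40, a limit set after the data were examined. On 36 of these every vehicle library was above both primary replicates 3 and 4 in the mean over members, on 2 every vehicle library was below both, and on 37 they overlapped. The largest difference was on KB708157.1, where 47 members were at 25.7%, 30.5%, 27.4% and 23.0% with vehicle and at 15.4% and 9.82% in primary replicates 3 and 4. The 2 scaffolds with lower vehicle levels were KB708194.1 (50 members, 4.24% to 9.07% with vehicle, 10.7% and 9.99% in primary cells) and KB708152.1 (42 members, 11.1% to 13.7%, against 17.4% and 19.9%). After 5aCdR all libraries were below all vehicle libraries on 29 of the 75 scaffolds and above them on 0.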
